A study of Mus musculus with 20 samples.

Results

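Mature oligodendrocytes of the mouse basolateral amygdala (BLA) were represented by 373 cell barcodes, out of 5908 barcodes kept in 9 droplet libraries (6.31%). A barcode was kept when mitochondrial genes took at most 12.5% of its unique molecular identifiers (UMIs, 1 per counted RNA molecule) and at least 200 genes were detected. It was then counted as an oligodendrocyte when Mog, Mag, Ermn, Cldn11, Opalin, Mobp and Ugt8a together held at least 5 UMIs and Pdgfra, C1ql1, Cx3cr1, C1qa, Cldn5, Flt1, Gja1, Aqp4, Kcnj8, Vtn, Slc17a7 and Gad1, which mark other cell types, together held at most 2. The members were thus chosen by the measured UMIs summed over these 7 and 12 genes, whose values only describe the selection and were not tested. All 10 libraries deposited for the BLA held 28722 barcodes, of which 8305 were kept, and mouse 9970 was left out of the selection, where it would have added 4 of 2397 kept barcodes.

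The study asked how the prefrontal cortex and BLA respond to chronic corticosterone and to the fast-acting antidepressant ketamine, and the cortical libraries were not analysed here. Each BLA library came from 1 male wild-type C57BL/6 mouse of 13 weeks, and the cells were freed by enzymatic dissociation. BCD/Sal (mice 9901 and 9947) had received the vehicle 2-hydroxypropyl cyclodextrin in the drinking water and a saline injection, and BCD/Ket (mice 9946, 9949 and 9986) the same vehicle and ketamine at 10 mg/kg into the peritoneum. CORT/Sal (mouse 9969) had drunk water with corticosterone (35 µg/ml over 6 weeks) and was injected with saline, and CORT/Ket (mice 9967, 9968 and 9971) corticosterone and ketamine. Tissue was taken 24 h after the injection. Passages of the sources differ on the water of the controls (regular or with vehicle) and on the dissected tissue (prefrontal cortex alone or also BLA), and the labels were followed, which other passages of the study match. Values per mouse are given in this order of groups and mice throughout.

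Oligodendrocytes wrap axons in myelin, a stack of membrane rich in cholesterol and galactolipids whose inner faces are fused by the basic protein Mbp. They arise from precursor cells (OPCs, marked by Pdgfra), pass through a short newly formed stage in which Gpr17, Enpp6, Bcas1 and the Fyn kinase are active, and then express the genes of mature myelin. They also feed axons, buffer potassium through gap junctions and store iron. Corticosterone acts through the glucocorticoid receptor Nr3c1, which oligodendrocytes carry, and Sgk1 is a well known target of it in these cells.

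The selection was uneven across mice. Oligodendrocytes numbered 44 and 29 in BCD/Sal, 88, 44 and 63 in BCD/Ket, 34 in CORT/Sal, then 3, 24 and 44 in CORT/Ket. Their median depth was 1678 and 917 UMIs with BCD/Sal, 1052, 5297 and 2700 in BCD/Ket, 4722 in CORT/Sal, then 1112, 5094 and 2359 in CORT/Ket. Mouse 9967, with 3 oligodendrocytes and 5239 UMIs in all, entered no gene test, and its values are given beside those of the other mice.

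**Figure D1:**
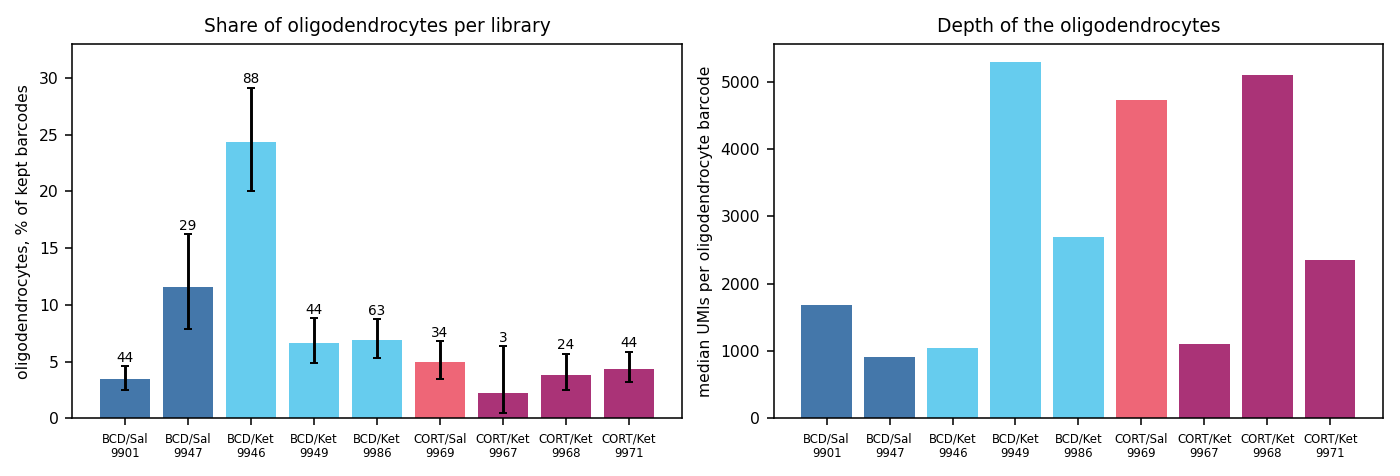
Share of oligodendrocytes among kept barcodes in percent, with exact (Clopper-Pearson) 95% intervals and the number of oligodendrocytes above each bar, and their median UMIs per barcode, for each of the 9 mice by group. Mouse 9946 stands highest in share at 24.4% and mice 9947 and 9946 are among the lowest in depth, at 917 and 1052 UMIs.

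Libraries 9946 and 9947 stood apart from the rest. They held 1 and 0 OPC barcodes, no microglia by the same kind of gate, and 16 and 15 astrocytes, against 337 OPCs, 889 microglia and 1364 astrocytes over the 9 libraries. Gm42418, an RNA that overlaps ribosomal RNA repeats, took 63792 CPM (counts of a gene per 1000000 UMIs of the oligodendrocytes of that mouse) in 9947, 16901 in 9946 and 19088 in 9967, and between 733 and 1402 in the other mice. Lars2 was likewise at 3789, 679 and 954 CPM in these mice, against 29.0 to 51.0 elsewhere. Both mice had received BCD, so that low depth and drinking water cannot be fully told apart, and results are also given without them below.

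Members just inside the limits were few. Exactly 5 marker UMIs were held by 10 of them, while 5 kept barcodes lay just outside at 4. UMIs of the other cell types were absent from 335 members, 31 had 1 and 7 had 2, and 1 barcode fell just outside with 3. No barcode sequence was shared between the oligodendrocytes of any pair of libraries, and the most that any of the 45 library pairs shared over all barcodes was 20. Doublets were not removed. The limit on mitochondrial UMIs was of more weight, since 566 barcodes passed the marker limits but held over 12.5% mitochondrial UMIs, and 110 of the 373 members lay between 10 and 12.5%.

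The cells carried the genes of mature myelin beyond the 7 that selected them. Mal (chr2:127458962-127482431, - strand, build NCBIM37), a protein of lipid rafts, stood at 7210 ± 1915 CPM (SD, n = 8 mice), with a lowest mouse of 5136 and a highest of 11220. In the median barcode it made up 0.64% of all UMIs (quartiles 0.445 and 0.914%), and 13 of the 373 barcodes lacked it. Mbp reached 5076 ± 665 CPM and was lacking in 8 barcodes. Cnp, an enzyme of noncompact myelin, was at 4243 ± 1005 CPM and the small heat shock protein Cryab at 3225 ± 1012. Levels were not scaled to transcript length, so that their order is one of counted molecules. Against the other kept barcodes of the same mice, the paranodal link protein Hapln2 was 239-fold higher, the sphingosine receptor S1pr5 169-fold and the gap junction protein Gjb1 145-fold. These folds only describe the selection.

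The defining genes of other types were near 0. Pdgfra and Kcnj8 had no UMI in any of the 1046094 UMIs of the 373 barcodes, and Slc17a7 had 15. The 11 microglial markers summed to 21.1 to 70.9 CPM in the 8 tested mice. The 11 astrocyte markers reached 689 and 157 CPM in BCD/Sal, 81.1, 347 and 316 in BCD/Ket, 370 in CORT/Sal, then 0, 351 and 347 in CORT/Ket, led in most mice by the glutamate transporters Slc1a2 and Slc1a3. The 10 OPC markers lay between 50.1 and 237 CPM. The rule itself capped Pdgfra, Kcnj8 and Slc17a7, and 2 genes of each of these 3 lists, so that low values of them only describe the selection. A pair of small sets of barcodes that depart from the label is described below.

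Transcription factors that set the lineage, as far as named here, were detected in all 8 tested mice. Olig1, a factor of the oligodendrocyte lineage, was at 966 ± 202 CPM, Sox10, which drives myelin genes, at 373 ± 155, and Myrf, the factor of terminal maturation, at 367 ± 51.2 (n = 8 mice each). Zeb2, a repressor that promotes maturation, stood at 1068 ± 280 and Nkx6-2, a factor of paranode assembly, at 423 ± 98.6. Of the lineage factors 12 passed the filter on low counts in the comparisons between groups and 11 in those over both drinking waters or injections. None was called in them, where between 0.0 and 0.22% of all genes tested were called.

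Genes of lipid supply and iron storage are given by their levels. The desaturase Scd2 stood at 4163 ± 1378 CPM, Fa2h, which makes the hydroxylated fatty acids of galactolipids, at 672 ± 89.8, and Aspa, which frees acetate for lipid synthesis, at 540 ± 118. Fth1, the heavy chain of ferritin, was at 17337 ± 5516 CPM and the iron carrier Trf at 3927 ± 690. Among receptors, the orphan receptor Gpr37 reached 923 ± 227 CPM, the lysophosphatidic acid receptor Lpar1 465 ± 122, Fgfr2 380 ± 63.5 and the neuregulin receptor Erbb3 119 ± 52.3.

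Ptgds varied widely between barcodes. It encodes the prostaglandin D synthase that marks one end of the mature range. It took 0.726% of the UMIs of the median barcode (quartiles 0.245 and 1.61%), up to 17.5% in 1 barcode and none in 42 others. In 337 barcodes thinned to 800 UMIs each, its variance was 16.5 times its mean, compared with 2.57 for Mal, and 36 shallower barcodes were left out. Gm42418 (28.4), Malat1 (26.3) and Meg3 (18.4) exceeded it. These ratios pool barcodes over mice, so that differences between mice enter them, and to an extent that differs from gene to gene. Genes of the opposite end of the mature range were sparse, with the protease Klk6 at 78.8 ± 80.8 CPM and Hopx at 56.8 ± 33.8. Klk6 stood at 102 and 251 CPM in BCD/Sal, 10.1, 67.1 and 105 in BCD/Ket, 78.8 in CORT/Sal, then 191, 16.7 and 0 in CORT/Ket, with the highest values in mice 9947 and 9967 and an overlap of the BCD groups.

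**Figure D2:**
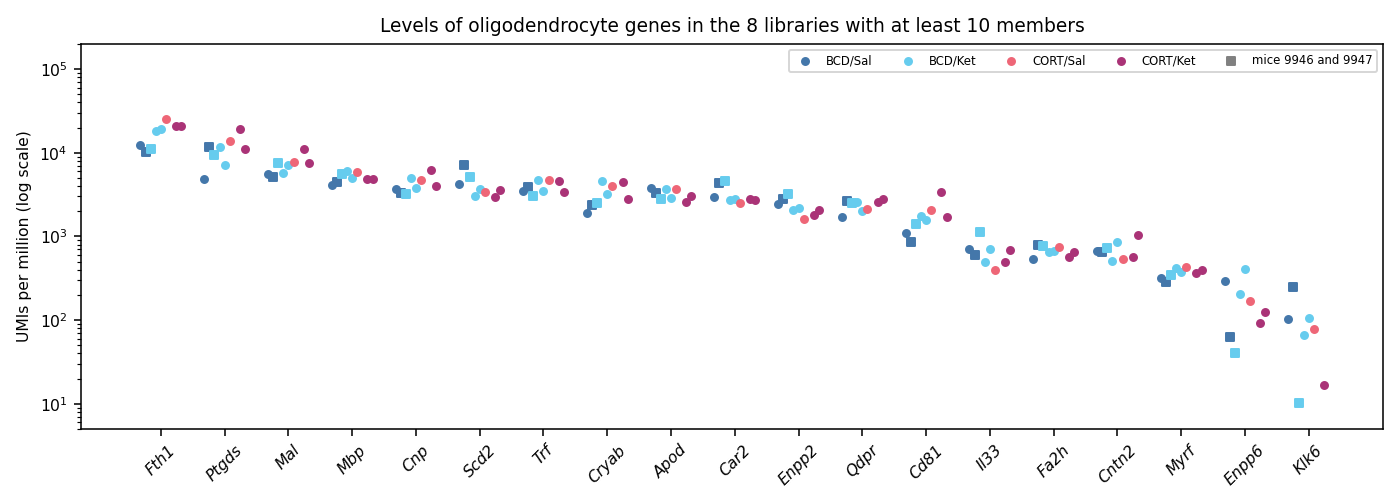
Levels of 19 genes in oligodendrocytes of 8 mice, in CPM on a log axis, with 1 point per mouse coloured by group. Squares are the shallow libraries of mice 9946 and 9947, and mouse 9967 and values of 0 are not drawn. Mbp stays between 4119 and 5996 CPM, while Klk6 spreads over more than an order of magnitude, up to 251 CPM.

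The share of oligodendrocytes was compared first, as a measure that the gene tests do not use. It was 3.45 and 11.6% in BCD/Sal, 24.4, 6.66 and 6.89% in BCD/Ket, 4.93% in CORT/Sal, then 2.22, 3.86 and 4.39% in CORT/Ket. Mouse 9946 was far above the rest and the mice given corticosterone lay within a narrow band that only 9901 of the controls entered. The mean was 3.85% ± 1.17 (SD, n = 4) with corticosterone and 10.6% ± 8.23 (n = 5) with BCD, a difference of -6.74 percentage points that did not pass a two-sided exact permutation test (p = 0.0635, the smallest possible being 0.0159). Without mouse 9946 the difference was -3.30 points (exact permutation p = 0.114). It passed without mouse 9901 (-8.53 points, exact permutation p = 0.0286, the smallest possible there) and with mouse 9970 included (-7.48 points, exact permutation p = 0.0317). The library of mouse 9970 was unlike the 9 others. Its median barcode held 3.22% mitochondrial UMIs, against 33.2 to 57.9% in those, and 2397 of its 2469 barcodes were kept. Ketamine and saline gave 8.07% ± 8.18 (n = 6) and 6.66% ± 4.34 (n = 3), a difference of 1.41 points (exact permutation p = 1.0, smallest possible 0.0238) that turned to -1.85 without mouse 9946. A share of kept barcodes depends on how many barcodes of other types survived the mitochondrial limit, and the part of that in these differences was not tested.

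Genes were compared on UMIs summed per mouse by edgeR's quasi-likelihood test, with p-values adjusted over all genes by the Benjamini-Hochberg method and called at an adjusted p of 0.05. Counts at these depths were simulated with 1 dispersion for all genes. It was 0.0723 for the contrasts between groups and 0.0663 for those over both waters or injections. Of 200 genes changed 4-fold, the fits recovered 53% in BCD/Ket against BCD/Sal and 69.5% in CORT/Ket against BCD/Ket. For ketamine over both waters it was 82% and for corticosterone over both injections 85%. False calls numbered 6, 3, 4 and 4 in this order. Recovery for genes with a wider spread, such as those with most UMIs in few barcodes, was not tested. CORT/Sal held 1 mouse, so its own contrasts have no replicate check. All of the comparisons draw on the same 8 libraries and the first 2 share the BCD/Ket mice, so that the values are set side by side and their agreement is not evidence.

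Corticosterone went with a lower level of S100b, a calcium-binding protein of glia that lies at chr10:75716598-75723904 (+ strand, NCBIM37). S100b stood at 395 and 344 CPM in BCD/Sal, 132, 442 and 342 in BCD/Ket, 164 in CORT/Sal, then 66.8 and 48.3 in CORT/Ket. Both tested CORT/Ket mice were below every other mouse, CORT/Sal lay above the lowest BCD mouse, and the 3 barcodes of mouse 9967 went the other way with 1145 CPM from 6 UMIs in 1 barcode. The share of members with an S100b UMI had another order, with BCD/Ket mouse 9946 lowest at 7.95%, below 12.5% in mouse 9968 and 9.09% in 9971, and at 800 UMIs per barcode it was 6.94, 8.33 and 4.76% in these mice. Over both injections S100b fell by 1.86 on the log2 scale (SE 0.37, adjusted p = 0.0312), the 1 gene called of 2713 tested (0.0369%). It was not called under 6 of the alternatives, which were DESeq2 (adjusted p = 0.0686), a limit of 25% mitochondrial UMIs (adjusted p = 0.828), at least 30 members per mouse (adjusted p = 0.231), and leaving out mouse 9901 (adjusted p = 0.146), 9968 (adjusted p = 0.358) or 9971 (adjusted p = 0.0564).

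Within the ketamine mice S100b fell by 2.42 (SE 0.48, adjusted p = 0.00161) in CORT/Ket against BCD/Ket. The level rested on 31 and 11 UMIs with BCD/Sal, 13, 112 and 65 in BCD/Ket, 27 in CORT/Sal, then 8 and 5 in CORT/Ket, and 6 of the 8 UMIs in mouse 9968 came from 1 barcode. With mouse 9967 included the change was -1.75 (adjusted p = 0.224), at a limit of 25% mitochondrial UMIs it was -1.65 (adjusted p = 0.271), and by DESeq2 it was -2.40 (adjusted p = 0.546). Without mice 9946 and 9947 it was -2.75 and remained called.

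Astrocytes and OPCs of the same mice, which also express S100b, were measured alongside. In astrocytes its level was 329 and 120 CPM in BCD/Sal, 229, 355 and 305 in BCD/Ket, 306 in CORT/Sal, then 224, 233 and 291 in CORT/Ket. The values of mice 9947, 9946 and 9967 rested on 2, 2 and 4 UMIs, and those of the others on 105 to 202. OPCs of the 6 deeper mice lay between 210 and 327 CPM. In a joint fit with the mouse as a block, the corticosterone change in oligodendrocytes differed from that in astrocytes by -1.93 (SE 0.41, adjusted p = 0.00685 by edgeR's quasi-likelihood test), 1 of 5 genes called of 6281 tested (0.0796%), all 5 lower. This comparison had 0 calls by DESeq2, without the mouse block and without mouse 9949 or 9968, and without mouse 9971 it had 2, both higher.

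CORT/Ket against BCD/Ket gave 8 called genes of 3629 tested (0.22%), 7 of them lower in CORT/Ket (0.193%) and 1 higher (0.0276%). Besides S100b, the lower genes were Pdcd4, an inhibitor of translation, Frmd4a, a scaffold of cell polarity, Bcan, the proteoglycan brevican of the perineuronal matrix, the transcription factor Sox4, Marcks, an actin-binding substrate of protein kinase C, and the noncoding RNA 9630013A20Rik. Frmd4a and 9630013A20Rik belong to the list of newly formed oligodendrocyte genes. None of the 8 calls was kept by DESeq2, without mouse 9949, 9968 or 9971, or with no UMI of other cell types allowed, settings that called 0 genes.

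Pdcd4 (chr19:53966721-54004351, +) was at 242 and 0 CPM in BCD/Sal, 40.5, 237 and 153 in BCD/Ket, 36.4 in CORT/Sal, then 191, 8.35 and 19.3 in CORT/Ket, a change of -3.44 (SE 0.70, adjusted p = 0.00161). The tested groups did not overlap, which was so for 17.7% of all genes tested, although BCD/Ket mouse 9946 stood close to the CORT/Ket mice. Frmd4a (chr2:3938763-4535083, +) was at 191 and 31.3, then 30.4, 205 and 421, then 115, then 0, 25 and 29.0 CPM in the same order, a change of -3.05 (SE 0.61, adjusted p = 0.00161). Its tested groups did not overlap, and the closest mice were 9946 at 30.4 CPM and 9971 at 29.0.

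Bcan (chr3:87791453-87804278, - strand) was at 89.3 and 0 CPM in BCD/Sal, 20.3, 189 and 195 in BCD/Ket, 66.7 in CORT/Sal, then 0, 8.35 and 19.3 in CORT/Ket, a change of -3.35 (SE 0.71, adjusted p = 0.00161). Sox4 (chr13:29040788-29045582, -) had 53 UMIs of 542075 in BCD/Ket and 0 of 223404 in CORT/Ket, and was at least 7.28-fold lower there when 3 UMIs over the group are taken as the floor (adjusted p = 0.00495). Marcks (-3.80, adjusted p = 0.00161) and 9630013A20Rik (-3.95, adjusted p = 0.0406) overlapped between the groups, because mouse 9946 had 10.1 and 0 CPM of them. They are named here after their values were seen.

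These 6 genes came mostly from a handful of barcodes. In mouse 9949 1 barcode of 19501 UMIs held 55 of the 60 UMIs of Pdcd4, 45 of 48 of Bcan, 23 of 24 of Sox4, 54 of 55 of Marcks and 17 of 18 of 9630013A20Rik. In mouse 9986 1 barcode of 9132 UMIs held 20 of 29, 21 of 37, 27 of 28, 25 of 27 and 27 of 30 UMIs of the same genes and 45 of 80 of Frmd4a. S100b differed from them in this respect, with 29 of its 112 UMIs in mouse 9949 from that barcode.

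Both barcodes belonged to a set of 7 that held at least 3 UMIs of Gpr17, a receptor that holds back maturation, the sialidase Neu4, the calcium channel Itpr2 and 9630013A20Rik. This limit was set after the values had been seen, so the set is only described. It had 1 barcode in mouse 9901, 1 in 9949, 3 in 9986, 2 in 9969 and none in the other 5 mice. None of the 7 held a UMI of Opalin or Pdgfra, 1 had Mog, and their median of the 7 selecting genes was 11 UMIs against 24 in the other members. Enpp6, which is high in premyelinating cells, reached 34 UMIs in 1 of them. Another, of 5272 UMIs in mouse 9969, had 0 UMIs of Gpr17, Neu4 and Enpp6 and 98 of the 7 selecting genes. It entered the set by 17 UMIs of 9630013A20Rik and 5 of Itpr2.

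The set made up 1.88% of the members and 4.02% of their UMIs. Its shares of Neu4 (100%), 9630013A20Rik (97.2%) and Gpr17 (97.1%) follow from how it was defined. Of genes that did not define it, it held 97.9% of the UMIs of the matrix protein Tnr, 95.0% of Sox4, 89.6% of Marcks, 88.0% of Bcan, 77.9% of Pdcd4, 75% of Frmd4a and 70.3% of Fyn. Its shares of Enpp6 (35.7%) and Bcas1 (30.8%), also genes of the newly formed stage, were lower. For S100b the share was 15.1%. With none among 24 and 44 oligodendrocytes, mice 9968 and 9971 allowed shares of up to 12.5 and 6.82% by the limit of 3 counts (14.2 and 8.04% by the exact binomial interval), which include the shares of 2.27% (1 of 44) in mouse 9949 and 4.76% (3 of 63) in mouse 9986, so a difference in their number was not detectable at this depth. Without the 7 barcodes CORT/Ket against BCD/Ket kept 1 call, S100b, with a change of -2.24 (adjusted p = 0.0132).

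**Figure D3:**
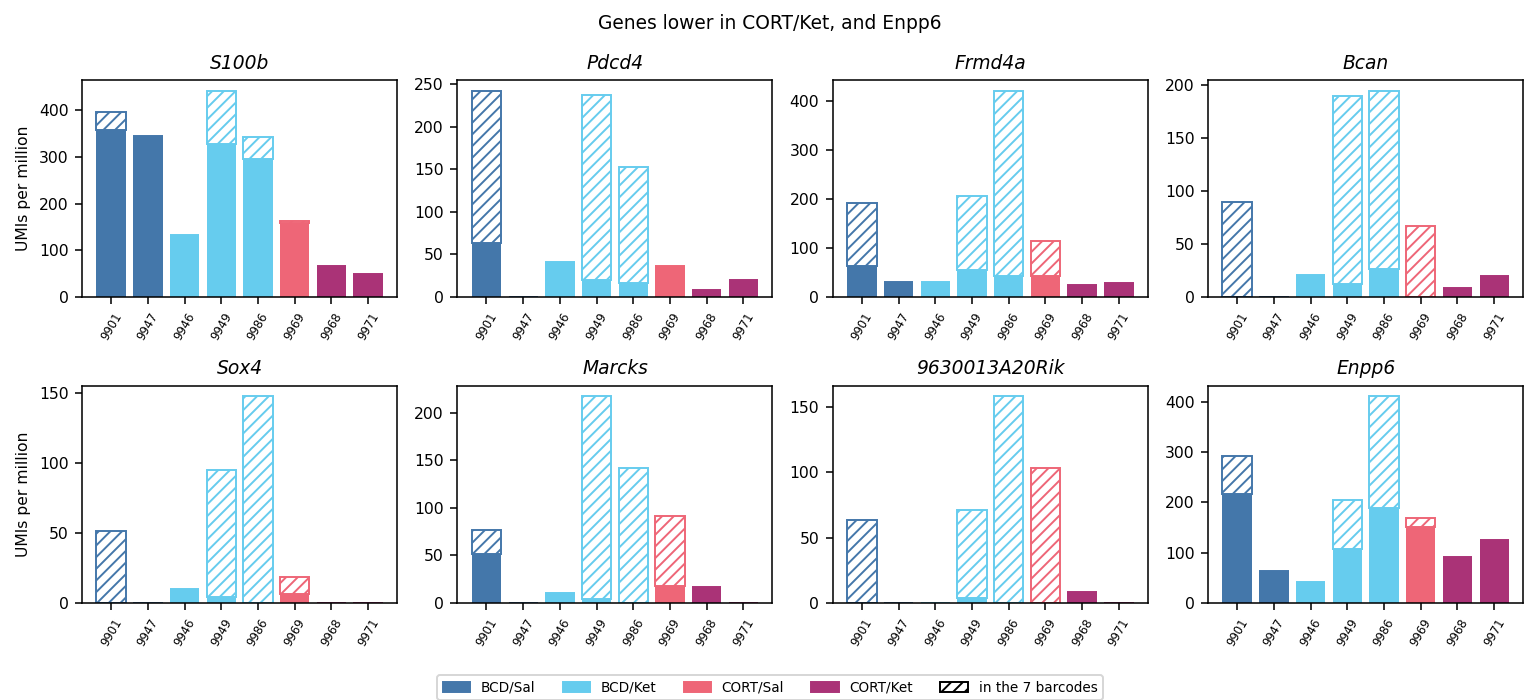
CPM of S100b, Pdcd4, Frmd4a, Bcan, Sox4, Marcks, 9630013A20Rik and Enpp6 in the oligodendrocytes of each mouse, with the portion that came from the 7 barcodes rich in newly formed oligodendrocyte genes hatched. The hatched portion takes 95.0% of the UMIs of Sox4 and 15.1% of those of S100b over all mice.

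Kept barcodes outside the oligodendrocyte and OPC gates with at least 3 such UMIs were also counted. There were 10 and 0 in BCD/Sal, 0, 21 and 11 in BCD/Ket, 10 in CORT/Sal, then 1, 18 and 2 in CORT/Ket. Mouse 9968, which had none inside the gate, thus had 18 outside it, and mouse 9971 had 2.

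Of 16 newly formed oligodendrocyte genes, 11 passed the filter on low counts. In CORT/Ket against BCD/Ket 2 of them fell, where 0.193% of all genes were called lower, and the 11 had a median change of -1.78, beside -0.02 for all genes tested. In BCD/Ket against BCD/Sal, which shares the BCD/Ket mice, none was called, where 0.0276% of all genes were. All 11 had values above 0 there, with a median of 0.97 beside 0.03. Gpr17 was at 51.0 and 0 CPM in BCD/Sal, 0, 63.1 and 153 in BCD/Ket, 103 in CORT/Sal, then 0, 16.7 and 0 in CORT/Ket, and did not pass (-3.00, adjusted p = 0.205). Enpp6 was at 293 and 62.6, then 40.5, 205 and 411, then 170, then 382, 91.8 and 125 CPM, and its change of -1.07 did not pass either (adjusted p = 1.0). Several of these 11 genes shared their UMIs with the same 7 barcodes and so are not separate observations. With a group of 1 mouse in the fit, a gene could also pass the filter through 1 library. A BCD/Ket mouse with a high level moves the 2 comparisons in opposite directions. The medians and signs of these genes are therefore only described.

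Promoters of 4 of the lower genes are shown, of S100b, which was spread over many barcodes, and of Bcan, Sox4 and 9630013A20Rik, which were not. Each run is the 250 bases before the RefSeq start on build GRCm38.p6, 5′ to 3′ on the strand of the gene. Capitals mark a match, on either strand, to the core AGAACA of the glucocorticoid element or to the SOX-type motifs ACAATG and ACAAAG, which occur in 16.1%, 10.7% and 16.5% of 32851 mouse promoters of this length.
S100b (chr10:76253586-76253835, +): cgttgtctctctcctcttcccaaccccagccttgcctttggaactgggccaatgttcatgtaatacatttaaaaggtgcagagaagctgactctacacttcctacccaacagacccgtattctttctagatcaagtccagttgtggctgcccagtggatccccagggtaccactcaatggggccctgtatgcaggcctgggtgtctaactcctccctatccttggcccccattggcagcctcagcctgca
Bcan (chr3:88000357-88000606, -): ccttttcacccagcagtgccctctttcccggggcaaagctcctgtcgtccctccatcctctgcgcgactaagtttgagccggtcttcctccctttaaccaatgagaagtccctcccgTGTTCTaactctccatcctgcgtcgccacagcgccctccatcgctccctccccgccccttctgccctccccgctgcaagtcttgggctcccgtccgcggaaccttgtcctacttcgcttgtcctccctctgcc
Sox4 (chr13:28953700-28953949, -): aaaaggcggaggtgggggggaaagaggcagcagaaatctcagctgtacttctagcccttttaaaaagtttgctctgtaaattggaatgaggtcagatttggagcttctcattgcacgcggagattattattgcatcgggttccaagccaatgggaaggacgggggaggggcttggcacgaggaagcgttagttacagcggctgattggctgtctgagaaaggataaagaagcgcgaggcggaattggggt
9630013A20Rik (chr14:84476425-84476674, -): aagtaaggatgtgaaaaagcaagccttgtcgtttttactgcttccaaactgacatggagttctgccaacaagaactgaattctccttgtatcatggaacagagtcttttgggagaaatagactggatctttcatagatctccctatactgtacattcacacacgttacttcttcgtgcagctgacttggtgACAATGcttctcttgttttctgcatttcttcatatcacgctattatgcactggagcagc
The S100b and Sox4 windows had no match, the Bcan window 1 AGAACA, printed as its reverse complement TGTTCT, and the 9630013A20Rik window 1 ACAATG. Of the windows not shown, 1 of 2 of Pdcd4 and 1 of 4 of Frmd4a had an ACAAAG. Such matches describe the letters only and do not set S100b apart.

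The 1 gene higher in CORT/Ket was Ttr, transthyretin, an abundant product of the choroid plexus. BCD/Sal had 2 and 2 UMIs of it, with none in the 3 BCD/Ket mice, 6 in CORT/Sal, then 0, 0 and 15 in CORT/Ket. All 15 came from mouse 9971, in 14 of its barcodes, and the groups overlapped at 0 in mouse 9968. Against a floor of 3 UMIs it was at least 12.1-fold higher (adjusted p = 0.0139), and it is named after its values were seen.

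Ketamine without corticosterone (BCD/Ket against BCD/Sal) gave 1 call of 3629 (0.0276%), the neuronal long noncoding RNA Snhg11 (chr2:158201374-158211881, +). It stood at 1020 and 344 CPM in BCD/Sal, 50.7, 39.4 and 132 in BCD/Ket, 12.1 in CORT/Sal, then 191, 41.7 and 154 in CORT/Ket. Both BCD/Sal mice were above all others, a lack of overlap with BCD/Ket that 22.4% of all genes tested showed, and Snhg11 fell by 3.24 (SE 0.41, adjusted p = 2.6e-11). Meg3, another noncoding RNA of neurons, was at 4042 and 689 CPM in BCD/Sal and at 0, 118 and 342 in BCD/Ket.

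A pair of barcodes held many of these UMIs. The one in mouse 9901 had 3400 UMIs, 65 of 13 neuron markers, 6 of Mbp, 41 of the 80 Snhg11 UMIs of that mouse and 209 of its 317 Meg3 UMIs. It also held 16 UMIs of the selecting genes, among them 6 of Cldn11, 4 of Mag and 3 of Mobp, near the median of 18 in that mouse. The other, in mouse 9947, had 3327 UMIs, 46 of the neuron markers, 8 of Mobp as its only selecting gene, 6 of Mbp and all 11 Snhg11 UMIs. Neither had a UMI of Mog, the next highest member had 11 UMIs of the neuron markers, and 212 members had none. Snhg11 was also found in 23 of the 44 members of mouse 9901 and Meg3 in 37, and without that barcode the mouse stood at 520 CPM of Snhg11 and 1440 of Meg3, above every BCD/Ket mouse. In mouse 9947 Snhg11 was at 0 and Meg3 at 35.0 CPM without its barcode. The neuron markers of both barcodes go against the label, although the barcode of mouse 9901 held them together with several selecting genes. Without the 2 barcodes edgeR called no gene (152 at an unadjusted p under 0.05), with Snhg11 at -2.07 (adjusted p = 0.982). Without mouse 9901 it was at -2.12 (adjusted p = 0.550).

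Neuron markers were then summed. Of the 11 that the rule did not use 6 passed the filter and 1, Snhg11, was called, which was the only call among all genes tested (0.0276%). All 6 had values below 0 (median -2.72, beside 0.03 for all genes tested). These signs are only described, since with a group of 1 mouse in the fit a gene could pass the filter through 1 library. Atp1b1, for example, had 12 and 7 UMIs in BCD/Sal and at most 4 in any other mouse. With Slc17a7 and Gad1, the 13 genes summed to 1811 and 1503 CPM in BCD/Sal, 152, 189 and 321 in BCD/Ket, 90.9 in CORT/Sal, then 191, 200 and 463 in CORT/Ket, led by Snhg11 in all BCD mice. Without the 2 barcodes BCD/Sal had 1026 and 69.9 CPM, with mouse 9947 below the BCD/Ket mice and 9901 above them. Other kept barcodes held 8925 and 14576 CPM of them in BCD/Sal, 10814, 1699 and 5315 in BCD/Ket, 4036 in CORT/Sal, then 13057, 1755 and 6672 in CORT/Ket. Rbfox3 was at 0 in mouse 9901, and Gad1, Slc17a7 and Slc17a6 were at 0 in mouse 9947.

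**Figure D4:**
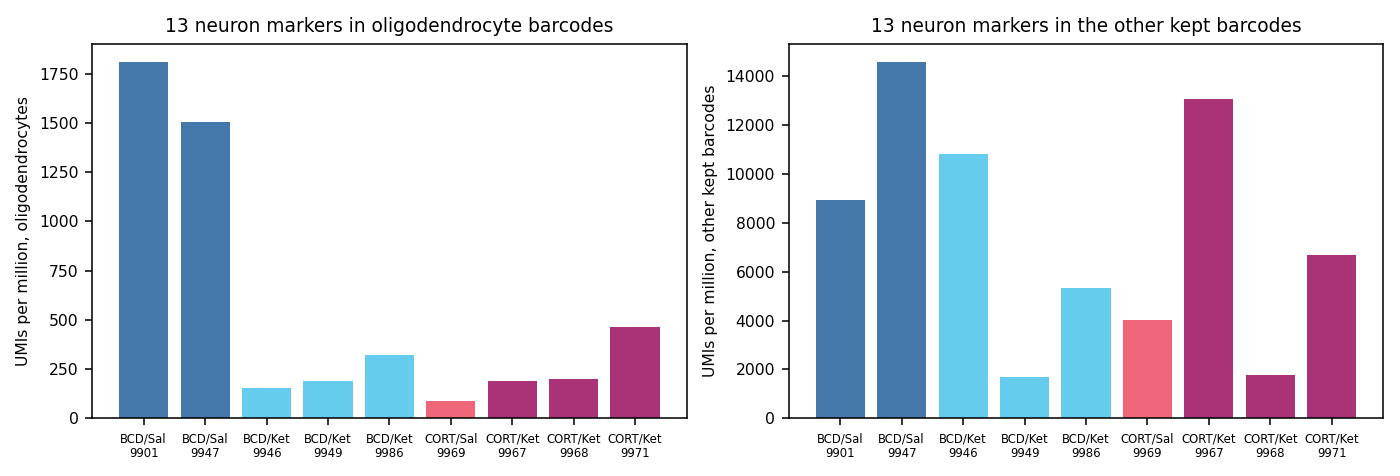
Summed CPM of 13 neuron markers in the oligodendrocyte barcodes (left) and in the other kept barcodes (right) of each mouse by group. The BCD/Sal mice 9901 and 9947 reach 1811 and 1503 CPM in oligodendrocytes, above all other mice.

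The genes next in rank in this comparison were not called. Those lower with ketamine were the glutamate receptor Grm5 (-4.04, adjusted p = 0.0831), the phosphodiesterase Pde10a (-3.81, 0.0831), the sodium pump subunit Atp1b1 (-3.52, 0.0831) and the synaptic scaffold Baiap2 (-4.25, 0.161), all known from neurons. The 2 neuron-rich barcodes held 11 of the 12 Atp1b1 UMIs of mouse 9901 and all 7 of mouse 9947. The one in mouse 9947 also held 5 of 6 UMIs of Grm5, 14 of 15 of Pde10a and all 12 of Baiap2. In mouse 9901 it was 8 of 12, 1 of 2 and 0 of 1 for these genes. Those higher were the proteasome subunit Psmd14, at least 2.78-fold from 0 UMIs in BCD/Sal (adjusted p = 0.282), Rps13 (1.48, 0.491), Edf1 (1.60) and the myelin deacetylase Sirt2 (1.08, adjusted p = 0.571). With a mouse left out Rps13 ranged from 0.90 to 1.98 and Sirt2 from 0.67 to 2.05. Sirt2 was at 561 and 219 CPM in BCD/Sal and at 486, 1199 and 874 in BCD/Ket, which overlap.

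Over both drinking waters no gene of 2713 was called for ketamine (0.0% called by edgeR and 0 by DESeq2, with 73 and 37 at an unadjusted p under 0.05). The smallest p-values belonged to Fkbp2 (1.13), Pdlim2 (0.79), Rps13 (0.81), Zfp871 (1.81) and Gigyf2 (1.64) among genes higher with ketamine. Lower were Dcaf17 (-1.23), Grm5 (-3.30), Arpp21 (-2.50), Atp1b1 (-2.74) and Klk6 (-1.68), all with an adjusted p of 0.996. With a mouse left out Rps13 ranged from 0.43 to 1.39 and Gigyf2, in the 3 fits that tested it, from 1.41 to 2.73. Grm5 ranged from -4.12 to -3.01, Arpp21 from -3.15 to -2.12, Atp1b1 from -3.61 to -2.43 and Klk6 from -2.31 to -1.30. The difference of the ketamine change between oligodendrocytes and astrocytes was called for 0 of 6281 genes (0.0% by edgeR and 0 by DESeq2, with 225 and 86 at an unadjusted p under 0.05). Its smallest p-values were those of Ccndbp1 (-2.67) and Map1b (1.83), a microtubule protein, both with an adjusted p of 0.256, and with a mouse left out they ranged from -3.45 to -1.60 and from 1.27 to 3.34.

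Other genes of smallest p for corticosterone over both injections were not called. Ndrg2, a differentiation gene of glia, was at 140 and 31.3 CPM in BCD/Sal, 112, 114 and 84.3 in BCD/Ket, 309 in CORT/Sal, then 764, 192 and 338 in CORT/Ket. Every corticosterone mouse was above every BCD mouse, where 5.27% of all genes tested had no overlap in the 8 tested mice, with a change of 1.43 (SE 0.33, adjusted p = 0.0768). Ndrg2 was called under 4 alternatives and not under 18. The 4 were mouse 9967 included (adjusted p = 0.0123), no filter on low counts (0.0245), depth as a term (0.0317) and at least 10 marker UMIs (0.0498). Without mouse 9969 the change was 1.37 (adjusted p = 0.9998). The glutathione transferase Gstp1 was at 25.5 and 0, then 20.3, 67.1 and 63.2, then 121, then 0, 225 and 106 CPM, a change of 1.81 (adjusted p = 0.0768), and mouse 9967 was at 0. Ubb, a ubiquitin gene, had a change of 1.16 (adjusted p = 0.0952) and the tetraspanin Cd81 of 0.85 (adjusted p = 0.262).

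Among the lower genes that were not called were the neuronal reticulon Rtn1 (-2.75, adjusted p = 0.261), the protocadherin Pcdh7 (-3.58) and the adiponectin receptor Adipor2 (-1.12). Gria2, a subunit of AMPA receptors, was at 421 and 251 CPM in BCD/Sal, 20.3, 197 and 216 in BCD/Ket, 60.6 in CORT/Sal, then 382, 8.35 and 77.2 in CORT/Ket, with a change of -2.19 (unadjusted p = 0.00452, adjusted p = 0.492). Apart from mouse 9946, the BCD mice were above the tested corticosterone mice.

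The steroid response itself was followed over 35 glucocorticoid and mineralocorticoid genes, of which 16 passed the filter. None was called, where 0.0369% of all genes tested were, and their median was -0.38 beside 0.00 for all genes tested. Nr3c1, the glucocorticoid receptor, was at 238 ± 56.7 CPM (n = 8), and the mineralocorticoid receptor Nr3c2 had 10 UMIs in all. Sgk1, a kinase, was at 421 and 1065 CPM in BCD/Sal, 1824, 619 and 248 in BCD/Ket, 66.7 in CORT/Sal, then 191, 25 and 232 in CORT/Ket. All corticosterone mice lay below all BCD mice (no overlap in 5.27% of all genes tested), and the highest values, 1824 and 1065 CPM, were those of the shallow libraries 9946 and 9947. The change of -2.96 (SE 1.04) did not pass (adjusted p = 0.584), and without these libraries it was -2.07 (adjusted p = 0.638). With a mouse left out it ranged from -4.02 (without 9971) to -2.37 (without 9946). With no filter on low counts Sgk1 was called (-2.85, adjusted p = 0.00534). Klf9, a transcription factor induced by steroids, was at 319 and 125, then 365, 154 and 300, then 54.5, then 0, 117 and 212 CPM, a change of -1.06 (adjusted p = 0.492) with overlapping groups. Fkbp5 had 18 UMIs and could not be followed.

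No myelin gene was called in any of these comparisons, in which between 0.0 and 0.22% of all genes tested were called. The lack of calls thus does not set the myelin genes apart. Of 18 in the list 17 passed the filter, with medians of 0.24 for BCD/Ket against BCD/Sal, 0.05 for CORT/Ket against BCD/Ket, 0.12 for ketamine and 0.12 for corticosterone, beside 0.03, -0.02, 0.01 and 0.00 for all genes. Mbp had log2 values of 0.42, -0.17, 0.09 and 0.07 in these comparisons. Mal was at 5559 and 5136 CPM in BCD/Sal, 7467, 5779 and 7183 in BCD/Ket, 7817 in CORT/Sal, then 4772, 11220 and 7518 in CORT/Ket, with a corticosterone change of 0.52 that did not pass (adjusted p = 0.555).

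Iron genes were not called either, which does not set them apart, since 0.0369% of all genes tested were called for corticosterone. All 4 that passed the filter of 12 listed had a positive corticosterone value, with a median of 0.42. Fth1 was at 12279 and 10241 CPM in BCD/Sal, 11095, 18379 and 19348 in BCD/Ket, 25555 in CORT/Sal, then 19851, 20995 and 20808 in CORT/Ket. The corticosterone mice were above all BCD mice (no overlap in 5.27% of all genes tested), and the shallow libraries 9946 and 9947 were among the 3 lowest. The change of 0.69 (SE 0.21, unadjusted p = 0.00232) did not pass (adjusted p = 0.471) and was 0.45 without these libraries. With depth as a term of the fit it was 0.39. With a mouse left out it ranged from 0.40 (without 9969) to 0.77 (without 9971). Ptgds was at 4896 and 11587, then 9433, 11811 and 7194, then 13847, then 4390, 19075 and 10973 CPM, a change of 0.72 (adjusted p = 0.555) with overlapping groups.

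**Figure D5:**
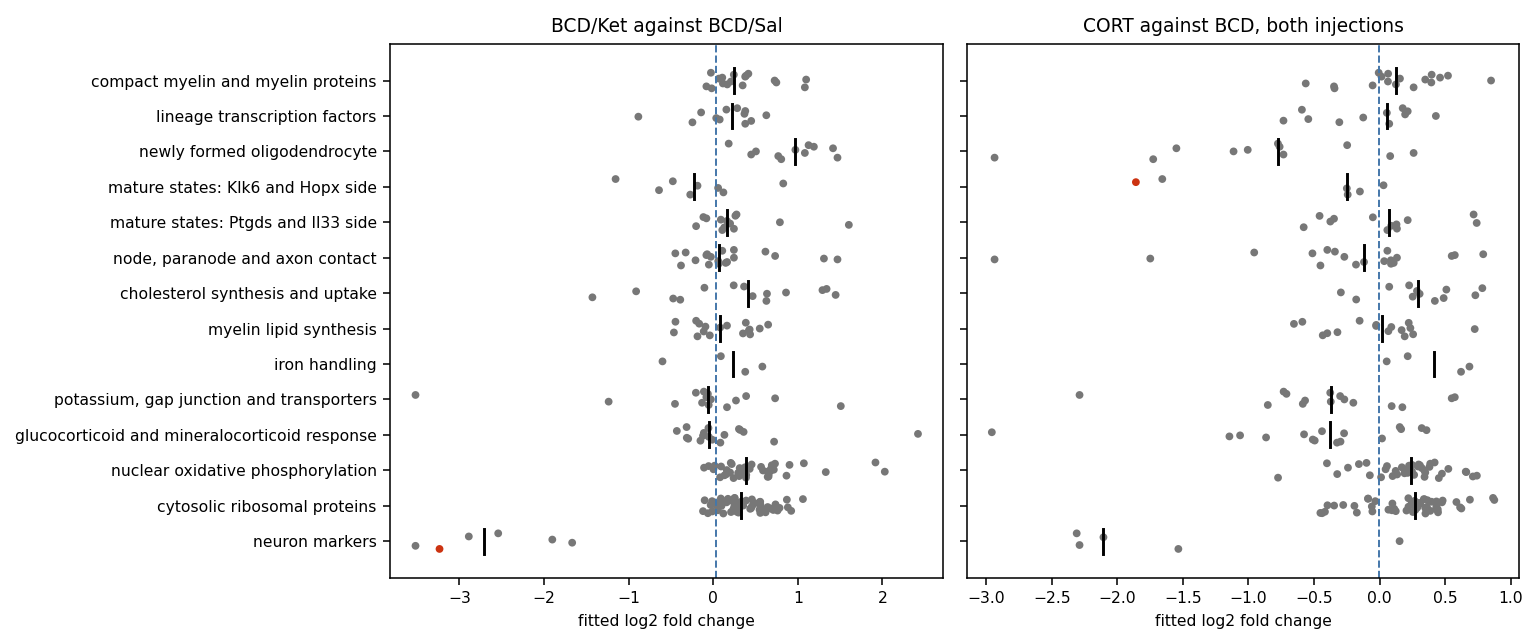
Log2 changes of the genes of 14 lists for BCD/Ket against BCD/Sal (left) and for corticosterone against BCD over both injections (right), with 1 point per gene that passed the filter, red where the adjusted p was under 0.05. Black bars are list medians and the dashed line is the median of all genes tested. Newly formed oligodendrocyte genes have medians of 0.97 and -0.78, and neuron markers -2.72 and -2.11, which are only described.

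Genes of energy supply and translation were called in no comparison. This does not set them apart, since between 0.0 and 0.22% of all genes tested were called. The 40 nuclear genes of oxidative phosphorylation had a median of 0.39 in BCD/Ket against BCD/Sal, with 38 above 0, of 0.06 in CORT/Ket against BCD/Ket, and of 0.24 for corticosterone, with 33 above 0. The 54 ribosomal protein genes had medians of 0.33, 0.13 and 0.27. BCD/Sal held 1 of the 2 shallow libraries among its 2 mice, and the part of depth in these medians was not tested. Cholesterol genes (14 of 24 passed) had a median of 0.41 in BCD/Ket against BCD/Sal, with Hmgcs1, the first enzyme committed to the pathway, at 179 and 93.9 CPM in BCD/Sal and 213, 67.1 and 258 in BCD/Ket.

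The other lists held 1 call each at most. Of all genes tested 0.22% were called in CORT/Ket against BCD/Ket and 0.0369% for corticosterone. Of 26 genes of nodes and axon contact 19 passed, with medians of 0.06 in BCD/Ket against BCD/Sal and -0.12 in CORT/Ket against BCD/Ket, where Bcan was the only call. Of 8 genes of the Klk6 and Hopx end of the mature range, S100b was the only one called for corticosterone (6 passed, median -0.25) and in CORT/Ket against BCD/Ket (8 passed, median -0.37). Of 17 genes of the Ptgds and Il33 end none was called, with medians of 0.16, -0.05, -0.06 and 0.07 in the 4 comparisons in the order used above. Markers of OPCs, microglia, endothelial and mural cells had no gene that passed the filter.

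The 1 CORT/Sal mouse can only be described. Against BCD/Sal, among 2425 genes with at least 20 UMIs over both groups, its largest ratios were Rnaseh2c at 13.4 (20 UMIs against 1), Bpnt1 at 7.02 (21 against 2), Gstp1 at 6.69 (20 against 2), Tmem109 at 6.35 and Ndufa1 at 6.35. Meg3 was 84.5-fold lower (6 UMIs against 339), Snhg11 68.0-fold (2 against 91), Lars2 37.4-fold, AY036118 29.2-fold and Atp1b1 28.4-fold (1 against 19). The neuron-rich barcodes of BCD/Sal held most of the Meg3, Snhg11 and Atp1b1 UMIs, and mouse 9901 without its barcode was still above CORT/Sal in Meg3 and Snhg11. For Lars2 121 UMIs and for AY036118 37 came from the shallow library 9947, and against mouse 9901 alone they were 1.68- and 2.10-fold lower, from 4 and 2 UMIs. Against mouse 9947 alone Meg3 was 18.9-fold and Snhg11 28.4-fold lower, but without its neuron-rich barcode that mouse had 35.0 and 0 CPM of them, against 36.4 and 12.1 in CORT/Sal. The higher genes rested on at most 2 UMIs in BCD/Sal, and Bpnt1 and Tmem109 were 2.03- and 1.84-fold higher against mouse 9947 alone.

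Between CORT/Ket and CORT/Sal the largest ratios among 3201 genes were Gm42756 at 14.8 (20 UMIs against 1), Snhg11 at 7.76 (21 against 2), Slc9a3r2 at 7.02, Camk2a, a neuronal kinase, at 5.66 and Meg3 at 4.80. Lower in CORT/Ket were Tmem108 6.50-fold, Ccndbp1 5.64-fold, Tmco3 4.87-fold, Frmd4a 4.29-fold and Tcf7l2, a factor of the newly formed stage, 4.06-fold (6 UMIs against 18). Mouse 9971 held most of the UMIs of Meg3 (33), Camk2a (19) and Snhg11 (16), and from mouse 9968 alone their ratios were 1.38, 1.84 and 3.44. Gm42756 stood at 8.27 from mouse 9968 and 22.3 from 9971, and Tmco3 was 3.27- and 11.3-fold lower. These ratios carry counting error only, and for Gm42756 the exact Poisson intervals of the 2 levels were 54.7 to 138 CPM and 0.153 to 33.8 CPM.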

How the data were processed

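The authors deposited raw UMI counts per gene and barcode (31053 genes), which the file headers credit to version 3.0.2 of Cell Ranger. The methods name mm9, of whose GENCODE M1 annotation 23006 identifiers are part, so the annotation is not settled. Seurat 3.1.1 in the submitters' notes was not used here. The members, gene lists and tests were chosen with earlier results of these data known.

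UMIs were summed per mouse (8 mice with at least 10 members, 31932 to 253493 UMIs) and tested with edgeR 4.0.16 (TMM, filterByExpr, robust quasi-likelihood) in R 4.3.3, on 1 fit of 4 groups or with additive terms, and with astrocytes in a fit with the mouse as a block. DESeq2 1.42.0 was an alternative. Called genes of smallest p whose groups did not overlap were named, up to 10 in each direction, or 5 of smallest p where fewer than 5 were called, and any listed gene. Shares were compared by exact permutation over mice, with exact binomial and Poisson intervals for counting error at 95%. The libraries are from separate mice. Sums and plots were made in Python 3.11.15 with pandas 2.3.3, scipy 1.17.1, matplotlib 3.10.9 and numpy 2.4.6.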

Additional observations from a re-analysis of the deposited data

Results flagged for a closer look

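The corticosterone change differed between oligodendrocytes and astrocytes in 5 genes by a joint edgeR quasi-likelihood fit with the mouse as a block. The differences on the log2 scale were -1.93 for S100b, -3.94 for Pcdh7, -2.60 for Pdcd4, -3.87 for Sox4 and -2.22 for Rnd2, a small GTPase, with adjusted p-values between 0.00685 and 0.00768. With a mouse left out Sox4, in the 6 fits that tested it, ranged from -7.91 (without 9901, and -7.56 without 9969) to -3.03 (without 9968). Oligodendrocytes of CORT/Ket held 0 UMIs of Sox4, so the size of its fitted differences is not settled. The differences of S100b, Pcdh7, Pdcd4 and Rnd2 ranged from -2.47 to -1.52, -4.39 to -3.29, -3.72 to -2.18 and -3.12 to -1.68. Rnd2 was at 76.5 and 93.9 CPM in BCD/Sal oligodendrocytes, 20.3, 256 and 137 in BCD/Ket, 72.7 in CORT/Sal, then 0, 41.7 and 29.0 in CORT/Ket, and Pcdh7 at 153 and 31.3, then 10.1, 90.7 and 31.6, then 6.06, then 0, 0 and 9.65. The 7 barcodes rich in newly formed oligodendrocyte genes held 95.0% of the UMIs of Sox4, 77.9% of Pdcd4, 71.1% of Pcdh7, 51.6% of Rnd2 and 15.1% of S100b, and their part in these differences was not tested.

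Outside the selection, 566 barcodes met the limits on the marker genes but held over 12.5% mitochondrial UMIs, of which 260 were between 12.5 and 25%. They entered no comparison except where the limit was raised to 25%.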

How the results depend on the processing

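For the genes named by the rule, the log2 change kept its sign in all 888 values (1 per gene, comparison and alternative), of which 80 lost and 48 gained the call. Genes named outside the rule, such as Marcks, 9630013A20Rik, Ttr, Sgk1 and Fth1, were not part of this count. The rule picked its genes by p-value in the same libraries, and a fit whose filter a gene failed gave no value. The constant sign is thus only described. The count of calls was less steady. In BCD/Ket against BCD/Sal (1 call) it was 9 with no filter on low counts, 10 at up to 25% mitochondrial UMIs, 0 at no fewer than 10 marker UMIs and 0 at no fewer than 3, and 1 to 3 with a mouse left out (3 without 9901). In CORT/Ket against BCD/Ket (8 calls) it was 0 by DESeq2, 1 in a fit of the 2 groups alone, 0 with no UMI of other types allowed, 1 with at least 30 members per mouse, and 0 to 19 with a mouse left out (19 without 9946, 0 without 9949, 9968 or 9971, 1 without 9969). Ketamine (0 calls) had 4 with no filter and 0 to 1 with a mouse left out (1 without 9969). Corticosterone (1 call) had 0 by DESeq2, 12 with no filter, 0 at up to 25% mitochondrial UMIs, 3 at 10 marker UMIs, 2 with no UMI of other types, 0 with 30 members, and 0 to 6 with a mouse left out (0 without 9901 or 9968, 2 without 9947, 9949 or 9986, 4 without 9946, 6 without 9971). Against astrocytes the ketamine effect (0 calls) had 1 with no filter and 0 to 12 with a mouse left out (12 without 9971, 6 without 9969, 1 without 9901, 9947 or 9946), and the corticosterone effect (5 calls) had 8 with RLE factors, 0 by DESeq2, and 0 to 11 with a mouse left out (11 without 9947 or 9946, 8 without 9969, 2 without 9971, 0 without 9949 or 9968). Without the mouse as a replicate block the astrocyte comparisons gave 0 and 0 calls for ketamine and corticosterone, against 0 and 5 with it. Alternatives chosen after seeing the data gave, for BCD/Ket against BCD/Sal, 0 calls with depth as a term, 2 without mice 9946 and 9947, 7 without the 7 newly formed-like barcodes, 0 without the 2 neuron-rich ones and 8 with mouse 9967. For CORT/Ket against BCD/Ket they gave 25 without mice 9946 and 9947 and 1 without the 7 barcodes, and for corticosterone 10 with depth as a term, 11 without mice 9946 and 9947 and 7 with mouse 9967. The share difference of ketamine and saline (1.41 points) turned to -10.3 over oligodendrocytes and OPCs, -0.00333 at up to 5% mitochondrial UMIs, -0.196 without mouse 9901 and -1.85 without 9946 (range -1.85 to 3.88 with a mouse left out). That of corticosterone (-6.74) passed with mouse 9970 included (-7.48, exact permutation p = 0.0317), whose library was unlike the others as given above. It also passed without 9901 (-8.53, exact permutation p = 0.0286, the smallest possible there), and ranged from -8.53 to -3.30 with a mouse left out. The cause was not tested in any of these. At up to 5% mitochondrial UMIs the gene tests could not be fitted. No paired analysis was possible because each mouse is in 1 group and the numbers in the labels are mouse numbers, which no groups share. Depth limits low genes, since the tested mice held 24 to 88 members each.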
